A study of Mus musculus with 96 samples.

Results

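The H3K4me3 peaks of mouse embryonic stem cells (ESCs) were compared between Rybp-/- and Rybp+/+ cells over the whole genome. All intervals of both lists were taken, each interval counted once, which gave 39050 intervals for Rybp+/+ and 38013 for Rybp-/-. Together these are 77063 of the 222285 H3K4me3, H3K27ac and WDR5 intervals called in these genotypes. The cells were Rybp-floxed ESCs of the R7.15 line. Rybp-/- cells had received 5 µM 4-hydroxytamoxifen (4-OHT) for 4 days, and Rybp+/+ cells were the control. A vehicle control is named for a western blot of these cells. Whether the control cells for ChIP-seq and RNA-seq received vehicle is not given in the sources used here. As 4-OHT is named for Rybp-/- cells alone, the deletion and the exposure to 4-OHT cannot be told apart. The promoter that drives Cre is not given in the sources used here, and all these samples come from 1 cell line. Chromatin immunoprecipitation followed by sequencing (ChIP-seq) was made on 2 replicates per genotype, which the authors merged before peak calling. Each genotype therefore has 1 list, no test between the lists was possible, and the 95% intervals given with shares of intervals are exact binomial intervals that cover counting error only. RNA-seq was made on 2 libraries per genotype of the same line.

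H3K4me3 is the trimethylation of lysine 4 of histone H3, which MLL/SET1 methyltransferase complexes with the core subunit WDR5 place mainly around transcription start sites (TSSs) rich in CpG dinucleotides. Broad domains of the mark are typical of highly expressed and cell identity genes, while in ESCs the TSSs of silent developmental genes carry it together with Polycomb marks. RYBP is a subunit of non-canonical Polycomb repressive complex 1 (PRC1), whose catalytic subunit is RING1B.

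The intervals of both lists were joined into 42145 groups that overlap by at least 1 bp. A Rybp+/+ interval without any overlap in Rybp-/- ESCs is called lost, and a Rybp-/- interval without any in Rybp+/+ ESCs new. A group with 1 Rybp+/+ and several Rybp-/- intervals is called split, the reverse merged, and 1 interval in each list 1-to-1. The 1-to-1 groups numbered 30395 and held 77.8% of the Rybp+/+ and 80.0% of the Rybp-/- intervals. Lost intervals numbered 5665, or 14.5% of the Rybp+/+ list (95% interval 14.2 to 14.9), and new intervals 4016, or 10.6% of the Rybp-/- list (10.3 to 10.9). In addition, 1211 Rybp+/+ intervals were split into 2531 Rybp-/- intervals, 1400 Rybp+/+ intervals were merged into 683, and 175 groups had several intervals on both sides. The counts of split and merged groups depended on the calling, with 559 and 278 when intervals within 500 bp were joined first and 647 and 388 at a −log10 q of 5 or more. The same count in the other lists gave 28.7% lost and 29.3% new for H3K27ac, and 11.3% lost and 17.7% new for WDR5.

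To show what lost and new intervals look like, the 200 bp around the summit are given for 3 lost and 3 new intervals among those of highest fold enrichment, in mm9 on the plus strand, with each CG dinucleotide in capitals. The strongest lost interval, with a fold enrichment of 8.94, is not shown. The first lost window lies in an intron of 2310022A10Rik, the next 760 bp from the TSS of the small nuclear RNA gene U2, and the last in an intron of 4930473A06Rik. Their intervals had fold enrichments of 8.81, 8.47 and 8.47 in Rybp+/+ ESCs, and the windows hold 6, 4 and 8 CG dinucleotides.
chr7:28359796-28359995: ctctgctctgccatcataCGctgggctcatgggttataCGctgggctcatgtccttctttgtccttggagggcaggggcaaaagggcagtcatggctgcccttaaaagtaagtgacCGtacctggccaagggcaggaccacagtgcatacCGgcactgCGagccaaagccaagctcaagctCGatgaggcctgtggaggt
chr11:101502202-101502401: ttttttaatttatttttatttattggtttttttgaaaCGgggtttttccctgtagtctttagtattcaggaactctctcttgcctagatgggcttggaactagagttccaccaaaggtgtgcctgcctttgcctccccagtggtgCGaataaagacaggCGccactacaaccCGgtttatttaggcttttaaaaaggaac
chr4:83243138-83243337: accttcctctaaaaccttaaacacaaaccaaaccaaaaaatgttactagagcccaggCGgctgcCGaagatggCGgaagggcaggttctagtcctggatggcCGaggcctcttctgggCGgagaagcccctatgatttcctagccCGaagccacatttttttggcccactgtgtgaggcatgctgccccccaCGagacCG

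Of the new windows, the first lies between genes, 36230 bp from the TSS of Mir183, and the next also between genes, 215946 bp from Hand2, a heart and limb transcription factor gene. The last lies in an exon of 1200009I06Rik and inside a RING1B peak. Their intervals had fold enrichments of 9.40, 8.57 and 8.10 in Rybp-/- ESCs, and the windows hold 10, 8 and 11 CG dinucleotides.
chr6:30155867-30156066: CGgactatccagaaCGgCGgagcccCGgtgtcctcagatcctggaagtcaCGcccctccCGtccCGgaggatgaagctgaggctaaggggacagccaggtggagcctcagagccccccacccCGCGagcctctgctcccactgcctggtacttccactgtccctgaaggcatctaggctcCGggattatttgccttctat
chr8:59583734-59583933: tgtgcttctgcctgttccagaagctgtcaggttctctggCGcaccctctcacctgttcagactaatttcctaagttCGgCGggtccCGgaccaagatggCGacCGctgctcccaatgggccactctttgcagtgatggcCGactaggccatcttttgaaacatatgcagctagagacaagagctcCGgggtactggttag
chr12:112664045-112664244: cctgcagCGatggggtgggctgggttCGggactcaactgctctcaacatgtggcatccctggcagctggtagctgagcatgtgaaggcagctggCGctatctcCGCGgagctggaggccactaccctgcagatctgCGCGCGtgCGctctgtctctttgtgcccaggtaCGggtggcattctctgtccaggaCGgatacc

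Over all intervals, the median number of CG dinucleotides in the 200 bp around the summit was 4 for lost, 5 for new and 10 for 1-to-1 groups, and 94.8%, 95.8% and 99.0% of the windows held at least 1. The GC content had a median of 52.5% for lost, 53.5% for new and 60.5% for 1-to-1 groups.

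Lost and new intervals were weak and narrow. The median fold enrichment over background was 3.53 for lost intervals, against 7.53 over the Rybp+/+ list, and 3.62 for new intervals, against 7.97 over the Rybp-/- list. The highest was 8.94 among lost and 9.40 among new intervals, while the lists reach 88.0 and 86.0. The median width was 356 bp for lost and 342 bp for new intervals, and 1037 bp and 1042 bp over the lists. Each list was cut into 10 equal parts from the weakest to the strongest interval. In the first part 51.4% of the Rybp+/+ intervals were lost (49.8 to 53.0), in the fourth 13.6% (12.6 to 14.8) and in the sixth 0.233% (0.106 to 0.441). In the strongest 4 parts no interval was lost, with an upper limit of 0.0945% in each. The Rybp-/- list gave lower shares with the same shape, from 38.3% new in the weakest part (36.7 to 39.9) to 8.99% in the fourth and 0 in the strongest 4, with an upper limit of 0.0971% in each.

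**Figure D1:**
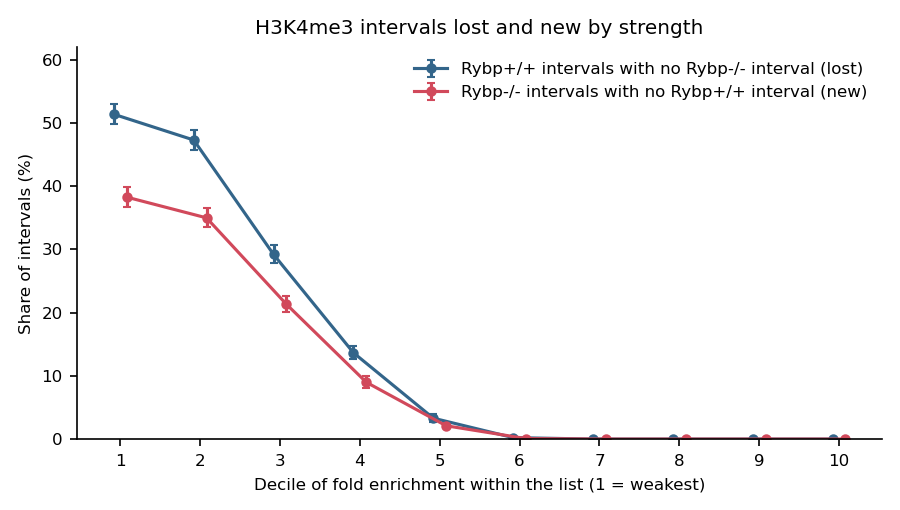
Share of H3K4me3 intervals (%) that were lost (Rybp+/+ list, blue) or new (Rybp-/- list, red) in each of 10 equal parts of the list by fold enrichment, 1 being the weakest; bars are exact 95% binomial intervals. Both curves fall from 51.4% and 38.3% in the weakest part to 0 in the strongest 4.

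Width gave the same picture. Among Rybp+/+ intervals under 300 bp, 57.0% were lost (55.2 to 58.7), and among those of 1 to 2 kb 1.09% (0.882 to 1.33). Of the 9045 intervals of 2 to 4 kb 2 were lost, and of the 2079 of 4 kb or more none, which allows a share of up to 0.177%. In the Rybp-/- list, 46.4% of the intervals under 300 bp were new (44.6 to 48.2), 0.231% of those of 1 to 2 kb, and none of the 9053 of 2 to 4 kb or the 1798 of 4 kb or more. With a −log10 q of at least 20, 7 of 20089 Rybp+/+ intervals had no Rybp-/- interval of any strength, and 3 of 19486 Rybp-/- intervals were new. Broad and strong domains of H3K4me3 were thus called in both genotypes almost without exception, and whether a weak interval fell below the threshold of the caller or lost its signal cannot be told apart in these lists.

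Lost and new intervals lay mostly away from TSSs. A TSS was within 1 kb of 12.2% of the lost (11.4 to 13.1) and 13.1% of the new intervals (12.1 to 14.2), against 50.5% of 1-to-1 groups (49.9 to 51.0). 1-to-1 groups whose Rybp+/+ fold enrichment lay in the middle range of the lost intervals, between 3.08 and 4.03, had a TSS in 15.7% of cases (14.4 to 17.1), nearer to but above the share of the lost intervals. The median distance to the nearest TSS was 8058 bp for lost and 10588 bp for new intervals. Lost intervals more often lay inside a gene, with 66.1% (64.8 to 67.3) against 56.1% of the new intervals (54.5 to 57.6). Many were not neighbours of a shared peak. The nearest interval of the other list was a median of 3795 bp away for lost and 6277 bp for new intervals, and was within 500 bp for 18.7% and 19.7%. Over 20 chromosomes, the share lost ranged from 10.4% on chromosome X to 15.7% on chromosome 4, and the share new from 8.29% on chromosome 19 to 12.5% on chromosome 12.

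Lost and new intervals differed in the marks that accompany them. H3K27ac, a mark of active promoters and enhancers, overlapped 48.0% of the lost intervals in Rybp+/+ (46.7 to 49.4) and 43.1% in Rybp-/- ESCs (41.8 to 44.4). It overlapped 24.7% of the new intervals in Rybp+/+ (23.4 to 26.1) and 32.2% in Rybp-/- ESCs (30.8 to 33.7). In 1-to-1 groups the shares were 52.5% and 56.8%, so the share with H3K27ac was higher in Rybp-/- ESCs at shared and new H3K4me3 and lower at lost H3K4me3. The H3K27ac list held 62669 intervals in Rybp-/- and 57642 in Rybp+/+ ESCs, but covered 69.6 Mb and 73.1 Mb. The WDR5 lists held 12946 and 11965 intervals. The part of list size in these shares was not tested, and a share of overlap does not measure signal. H3K27ac was called in Rybp+/+ alone at 504 lost intervals (8.90%) and in Rybp-/- alone at 222 (3.92%). At new intervals the order was the other way, with 75 (1.87%) in Rybp+/+ alone and 377 (9.39%) in Rybp-/- alone. The labels name no separate input for H3K4me3, H3K27ac and WDR5, so their lists may share the input of a genotype. The part of a shared input in these overlaps was not tested. WDR5 was called at 0.812% of lost and 0.374% of new intervals in Rybp+/+ ESCs, against 31.8% of 1-to-1 groups. In Rybp-/- ESCs WDR5 was called at 1.02% and 0.672%. At like strength the shares of WDR5 lay closer together but stayed lower at lost and new intervals, and for H3K27ac the order turned at lost but not at new intervals. Among 1-to-1 groups in the middle range of the lost intervals, 1.36% had Rybp+/+ WDR5 (0.961 to 1.86) and 34.8% Rybp+/+ H3K27ac (33.0 to 36.6), below the 48.0% of lost intervals. In that of the new intervals, 1.75% had Rybp+/+ WDR5 (1.33 to 2.26) and 41.2% Rybp+/+ H3K27ac (39.5 to 42.9), above the 24.7% of new intervals.

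RING1B peaks, called in shEV cells of the R1 ESC line from 1 sample, overlapped 3.44% of the lost (2.98 to 3.95) and 8.24% of the new intervals (7.41 to 9.14), against 41.8% of 1-to-1 groups. At like strength, 9.99% of 1-to-1 groups in the middle range of the lost (8.91 to 11.2) and 7.37% in that of the new intervals (6.51 to 8.32) had one. Of the Rybp+/+ intervals below the median fold enrichment, 29.1% were lost over all, 8.28% of those with RING1B (7.20 to 9.46), 32.0% of those without (31.3 to 32.7), 34.0% of those with Rybp+/+ H3K27ac (32.9 to 35.0) and 25.7% of those without (24.9 to 26.5). By Rybp-/- H3K27ac the shares were 29.4% with (28.4 to 30.4) and 28.9% without (28.0 to 29.7). The median fold enrichment of these weak intervals was 4.70 with RING1B and 4.17 without, and the part of strength in the gap by RING1B was not tested. Among weak Rybp-/- intervals, 12.4% with RING1B (11.2 to 13.7) and 22.5% without (21.9 to 23.2) were new, and 13.2% with Rybp+/+ H3K27ac (12.4 to 14.0) and 26.3% without (25.5 to 27.1).

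Split and merged groups were wider than the typical interval and parted by short gaps. Both traits follow in part from the definition, since the whole interval must reach several others and span the gaps between them. Groups of like width were not compared. Of the 1211 split groups, 1122 (92.7%) had 2 Rybp-/- intervals, 75 had 3 and 14 had 4 or more, with at most 8. The mean gap between the pieces of a group had a median of 239 bp, and it was under 200 bp in 33.4% of the groups. The whole Rybp+/+ interval had a median width of 2969 bp and was 4 kb or more in 406 groups (33.5%). A TSS lay within 1 kb of 60.0% of split groups, 81.9% had Rybp+/+ H3K27ac (79.6 to 84.0) and 46.7% RING1B (43.9 to 49.6). Merged groups were fewer and narrower. The whole Rybp-/- interval had a median width of 2301 bp and was 4 kb or more in 155 groups (22.7%), 653 of 683 groups (95.6%) came from 2 Rybp+/+ intervals, the mean gap of a group had a median of 226 bp, 55.9% had Rybp+/+ H3K27ac (52.1 to 59.7) and 54.3% RING1B (50.5 to 58.1). Split groups covered 4.26 Mb in Rybp+/+ and 3.75 Mb in Rybp-/- ESCs, a difference of -0.511 Mb. Merged groups covered 1.79 Mb and 1.92 Mb, a difference of 0.133 Mb.

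Among the widest split groups at a TSS, that of Esrrb, an orphan nuclear receptor of the naive pluripotency network, was the widest interval of the Rybp+/+ list. It spanned chr12:87807106-87825426 (18321 bp) and became 17672 bp and 385 bp in Rybp-/- ESCs, so that only its edge was parted. At Shmt2, the mitochondrial serine hydroxymethyltransferase gene, Ndufa4l2 and Stac3, the interval chr10:126944107-126959837 (15731 bp) was parted into 5269, 4719 and 4757 bp with gaps inside the domain. At Fgfr2, a fibroblast growth factor receptor gene, and Ctbp2, a corepressor gene, chr7:140300955-140317472 (16518 bp) was parted into 8702 bp with a fold enrichment of 10.3 and 7265 bp with one of 72.9. Pax6, a neural and eye transcription factor gene, had 6504 bp at chr2:105511698-105518201 in Rybp+/+ ESCs and pieces of 788, 471, 3732 and 272 bp in Rybp-/- ESCs.

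Among the widest merged groups, Zbtb7a had 15346 and 563 bp in Rybp+/+ and 15410 bp in Rybp-/- ESCs. Ltbp4, which encodes a TGF-beta binding protein, had 3027 and 9976 bp and then 13346 bp. The transcriptional repressor gene Hic1 had 6423 and 2734 bp and then 9480 bp. At Cilp2 and Yjefn3, 4 Rybp+/+ intervals of 2953, 801, 4942 and 558 bp became 1 interval of 11166 bp. RING1B overlapped each of these split and merged groups.

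**Figure D2:**
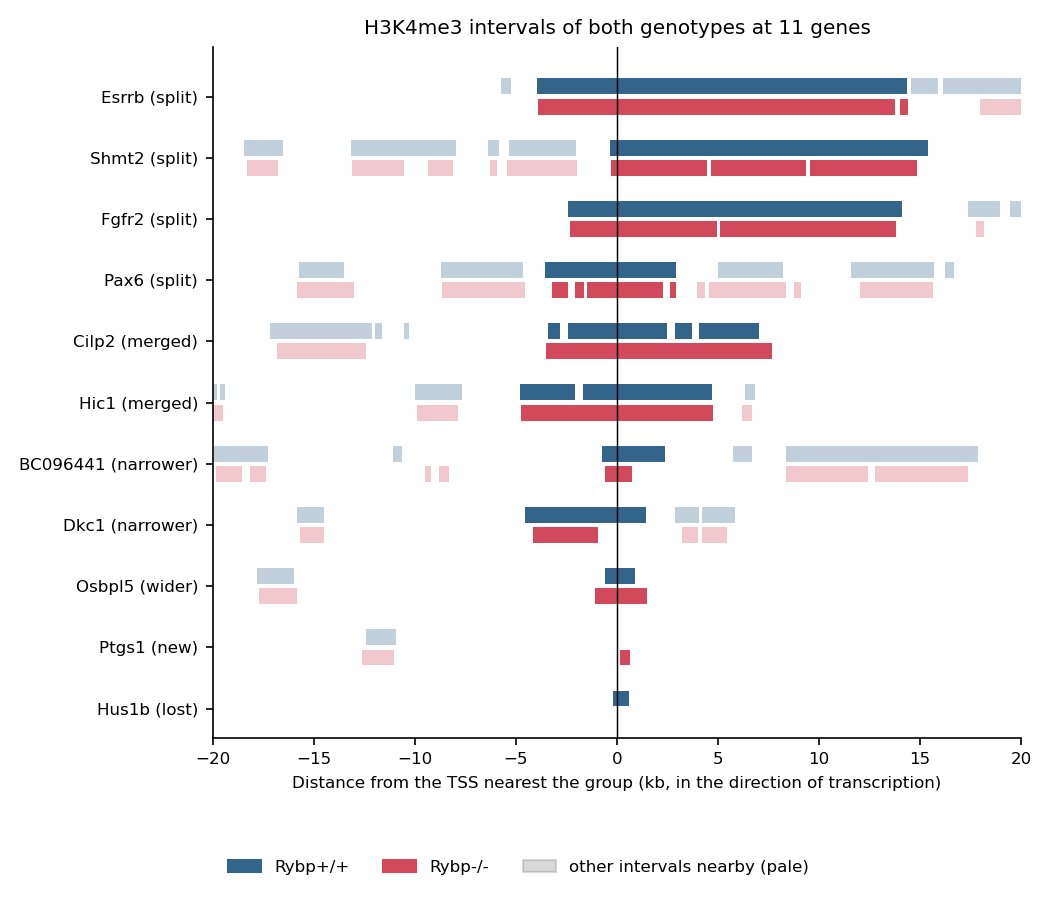
H3K4me3 intervals of Rybp+/+ (blue) and Rybp-/- ESCs (red) at named genes, drawn to scale by distance from the TSS (kb, in the direction of transcription); full colour marks the intervals of the group named beside the gene and pale colour other intervals nearby. The interval of Shmt2 is parted into 5269, 4719 and 4757 bp, and that of Dkc1 is 5983 bp in Rybp+/+ and 3206 bp in Rybp-/- ESCs.

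Shared intervals were slightly shorter in Rybp-/- ESCs, where shorter means any ratio of widths below 1. Over the whole lists the ratio of the median widths was 1.00. Dividing the lower limit of each median by the upper limit of the other, and the reverse, gave 0.972 to 1.04. That range is not a 95% interval of the ratio. In 1-to-1 groups the Rybp-/- to Rybp+/+ width ratio had a median of 0.984, and 16473 of 30395 (54.2%, 53.6 to 54.8) had a ratio below 1. The spread was wide, from 0.719 at the 10th to 1.29 at the 90th percentile. A ratio of 0.8 or less is called narrower below and was found in 4740 groups (15.6%), the inverse ratio or more is called wider and was found in 3666 (12.1%), and the rest are called similar. The 1-to-1 groups covered 49.9 Mb in Rybp+/+ and 48.8 Mb in Rybp-/- ESCs, lost intervals 2.35 Mb and new intervals 1.54 Mb. The Rybp+/+ list held 2079 intervals of 4 kb or more (5.32%) and the Rybp-/- list 1798 (4.73%). In 1-to-1 groups with a mean width of 4 kb or more 66.8% were shorter (64.3 to 69.2).

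The direction at TSSs went with RING1B. At TSSs without a RING1B peak, 63.7% of 6007 1-to-1 groups were shorter in Rybp-/- ESCs (62.5 to 64.9), with a median ratio of 0.956. With a RING1B peak the share was 50.7% of 9328 (49.7 to 51.7), and the median ratio was 0.998. The same order was found in each class of width. Under 1 kb 56.6% of the groups without and 42.1% of those with RING1B were shorter, at 1 to 2 kb 63.3% and 43.4%, at 2 to 4 kb 67.8% and 52.5%, and at 4 kb or more 79.2% (74.5 to 83.4) and 63.1% (60.0 to 66.0). Below 2 kb the intervals at RING1B were thus more often longer than shorter in Rybp-/- ESCs. The RING1B peaks come from another line, and the part of RING1B itself was not tested.

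**Figure D3:**
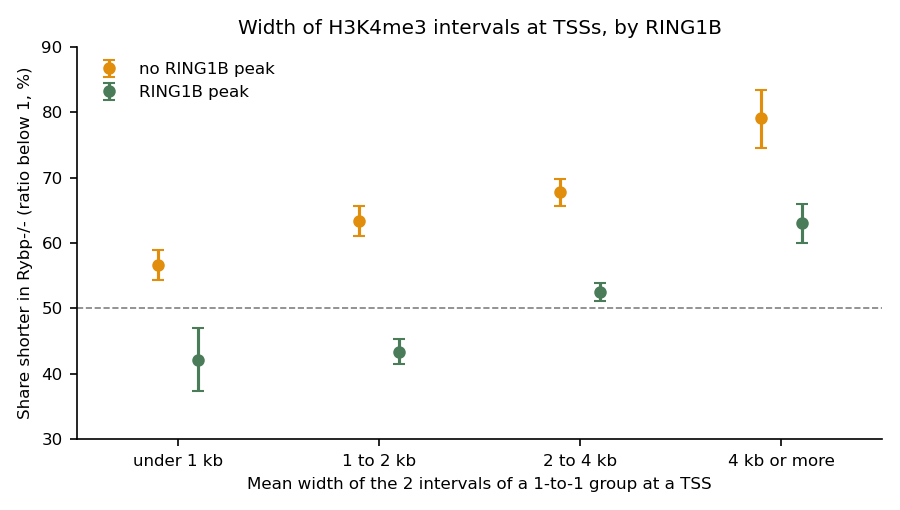
Share of 1-to-1 H3K4me3 groups at a TSS (%) that were shorter in Rybp-/- ESCs (ratio of widths below 1), by the mean width of the pair of intervals and by overlap with a RING1B peak (green, yes; orange, no); bars are exact 95% binomial intervals and the dashed line marks 50%. The axis starts at 30%. In each class of width the share is higher without RING1B, up to 79.2% against 63.1% at 4 kb or more.

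RNA-seq was then read at the TSSs of these classes. The libraries held 79374770 and 81049618 counts on genes in Rybp+/+ and 75496499 and 76340755 in Rybp-/- ESCs. Rybp itself had 110 and 110 counts scaled to library size (CPM) in Rybp+/+ and 24.8 and 25.0 in Rybp-/- ESCs, a log2 fold change of -2.15 ± 0.05 (SE), with an adjusted p of 8.1e-27 by the quasi-likelihood test of edgeR after Benjamini-Hochberg adjustment, which gives all adjusted p-values below. Its H3K4me3 stayed in place, at 6380 bp (chr6:100232841-100239220) in Rybp+/+ and 5843 bp in Rybp-/- ESCs. Of 16955 genes tested, 45.5% were called at an adjusted p under 0.05, 22.8% higher and 22.7% lower in Rybp-/- ESCs, and each count below is to be read against these shares. With a log2 fold change above 1 as well, 6.6% were higher, with one below -1 1.24% were lower, and 7.84% passed in either direction. In bulk RNA, fewer cells of a type and less RNA per cell cannot be told apart. Nothing says that the libraries came from separate cultures, so the p-values measure only the spread between these samples.

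Of the genes with a TSS within 1 kb of an interval, 17610 had one in Rybp+/+, 17614 in Rybp-/- and 17340 in both, so that gains and losses of H3K4me3 concerned few TSSs. Genes whose sole Rybp-/- intervals were new numbered 248, of which 114 were tested. Of these 40 (35.1%) rose and 9 (7.89%) fell, 32 of them rose with a log2 fold change above 1, and the median log2 fold change was 0.59, against 0.00 over all genes tested. Genes whose sole Rybp+/+ intervals were lost numbered 216, of which 96 were tested, 16 (16.7%) rose and 10 (10.4%) fell, with a median of 0.06. Where the interval had to contain the TSS, 7 rose and 8 fell, and without Rybp-/- replicate 2 the median was -0.04. Genes with any lost interval at a TSS, most of which keep another Rybp+/+ interval, gave 111 higher (21.4%) and 146 lower (28.1%) of 519 tested, with a median of -0.03, so the balance at lost intervals depended on which genes were counted. Genes with any new interval gave 114 higher (32.5%) and 75 lower (21.4%) of 351. Genes with no interval in either list gave 19.0% higher and 7.91% lower of 2389 tested.

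Genes at wider and narrower groups also differed in their calls. At wider 1-to-1 groups, 272 of 733 genes (37.1%) rose and 86 (11.7%) fell, with a median log2 fold change of 0.23. At narrower groups, 207 of 1079 (19.2%) rose and 313 (29.0%) fell, with a median of -0.06. Genes at similar groups stood at 22.9% and 25.7% of 12298. At split groups 196 of 808 (24.3%) rose and 258 (31.9%) fell, and at merged groups 100 of 367 (27.2%) and 86 (23.4%). Genes at wider groups are on the whole weakly expressed, so the counts were also taken by the level per length of transcript. Under 0.5 CPM per kilobase (RPKM), 35.5% of genes at wider and 22.3% at similar groups rose. From 0.5 to 5 RPKM the shares were 41.3% and 23.6%, and from 5 RPKM 31.1% and 22.7%. Genes at narrower groups fell in 6.36% of cases under 0.5 RPKM against 4.33% at similar groups, and in 39.7% against 33.6% from 5 RPKM, while from 0.5 to 5 RPKM the order was the other way, with 23.4% against 25.2%. Genes at new intervals rose in 36.1%, 35.5% and 27.3% of 72, 31 and 11 tested genes in these classes, while 4 of the 11 (36.4%) fell, with a median log2 fold change of -0.21.

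**Figure D4:**
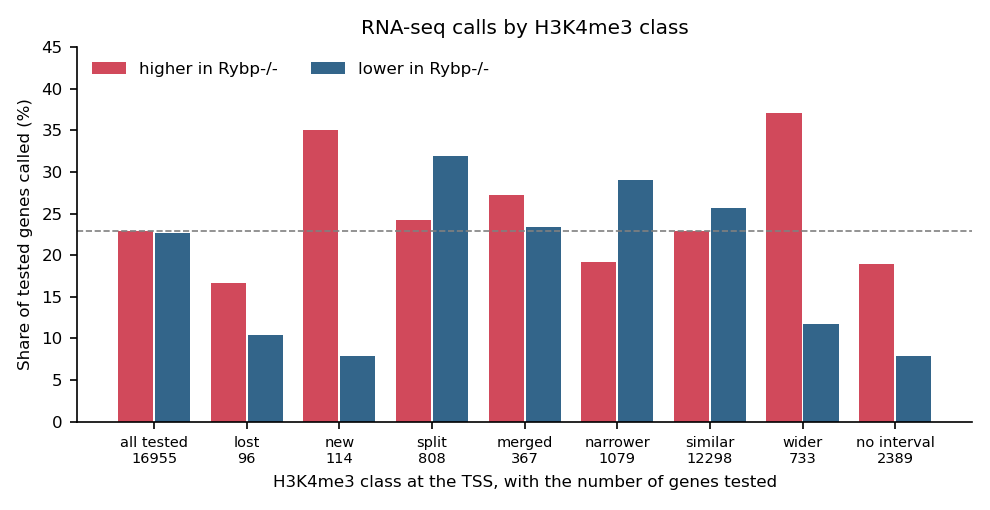
Share of tested genes (%) called higher (red) or lower (blue) in Rybp-/- ESCs by edgeR's quasi-likelihood test at an adjusted p under 0.05, for genes with a TSS within 1 kb of each class of H3K4me3 interval; the number tested stands under each class, and the dashed line is the share higher over all genes. Genes at new and wider intervals stand highest, at 35.1% and 37.1%.

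Read from the RNA, the same relation appeared. For each gene the widest H3K4me3 group at its TSSs was taken where it was 1-to-1. It was shorter in Rybp-/- ESCs, with a ratio below 1, for 67.6% of 3295 genes that fell, for 57.4% of 6823 genes not called and for 49.3% of 3054 genes that rose. Of the 694 genes that rose with a log2 fold change above 1, 31.0% had a shorter interval, with a median ratio of 1.06. The order held on both sides of RING1B. With a RING1B peak the shares were 65.2% for genes that fell, 52.2% for genes not called and 45.1% for genes that rose. Without one they were 72.5%, 65.7% and 59.2%. For the 129 genes that fell with a log2 fold change below -1, the share was 55.0%, below that of all genes that fell. These shares are over genes, which are not independent replicates.

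The largest rises at new intervals were those of Gm11545, annotated as a pseudogene, and Trpv3, a cation channel gene. Gm11545 had 0.114 and 0.0248 CPM in Rybp+/+ and 2.17 and 2.39 in Rybp-/- ESCs (log2 fold change 5.01 ± 0.42, SE, adjusted p = 8.6e-12, edgeR). Trpv3 had 0.382 and 0.211 CPM and then 2.15 and 2.47 (2.96 ± 0.31, adjusted p = 1.7e-09, edgeR). In both genes each Rybp-/- library stood above each Rybp+/+ library. Their new intervals were weak, with fold enrichments of 2.61 and 3.76, and lay 42633 bp and 13483 bp from the nearest Rybp+/+ interval. That of Gm11545 had a −log10 q of 1.87, under the 2 that the FDR limit in the methods corresponds to. Ptgs1, the gene of cyclooxygenase 1, had 0.572 and 0.571 CPM in Rybp+/+ and 2.47 and 2.26 in Rybp-/- ESCs (2.04 ± 0.26, adjusted p = 8.3e-08, edgeR). Its new interval was stronger, with 495 bp and a fold enrichment of 6.75, and another of its TSSs had a similar interval in both lists. Pkd1l2, 2010107G12Rik and Hormad2, whose protein acts on unsynapsed meiotic chromosomes, rose by 2.47, 1.74 and 1.93 on the log2 scale at new intervals. The new interval of Hormad2 overlapped a RING1B peak.

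New H3K4me3 was not always matched by more RNA. Celf3, an RNA-binding protein gene, had 1.69 and 1.34 CPM in Rybp+/+ and 0.657 and 0.546 in Rybp-/- ESCs and fell by 1.33 on the log2 scale. Its new interval had 257 bp and a fold enrichment of 3.76, and another interval at its TSSs was narrower in Rybp-/- ESCs. Of the 10 genes at the strongest new intervals, 5 were tested besides Ptgs1. Zfp747 rose by 0.21 (adjusted p = 0.0491, edgeR), a call lost by DESeq2 and with either Rybp-/- library or with Rybp+/+ replicate 1 left out, while Gm5819, Rph3a, Gdpd2 and Calcrl did not pass the test. Spo11, Gm12428, Gm12427 and Gm5868 had at most 0.0390 CPM in any library and were not tested.

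At lost intervals, Serpinb9b, a serine protease inhibitor gene, had 1.20 and 1.57 CPM in Rybp+/+ and 5.05 and 5.13 in Rybp-/- ESCs and rose by 1.88 on the log2 scale, against the direction of its mark. Tnnt1, the slow skeletal troponin T gene, had 10.6 and 10.4 CPM and then 4.39 and 4.60 (-1.22 ± 0.11, SE, adjusted p = 5.2e-11, edgeR), and Syngr4 fell by 1.32. Each Rybp-/- library stood below each Rybp+/+ library for both genes, and both have other intervals in the Rybp-/- list within 1 kb of a TSS, narrower at Tnnt1 and similar at Syngr4. Among the genes at the strongest lost intervals, Gprasp1 fell by 0.42 and Zfp384 rose by 0.28, Calm3, 3110053B16Rik, Isy1, Taf1b, Gm6139 and Hus1b did not pass the test, and U2 and Gm13827 were not tested. Hus1b, the checkpoint clamp paralog whose interval of 832 bp was its sole one, had 0.343 and 0.410 CPM in Rybp+/+ and 0.158 and 0.182 in Rybp-/- ESCs (-1.14 ± 0.60, SE, adjusted p = 0.120, edgeR).

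**Figure D5:**
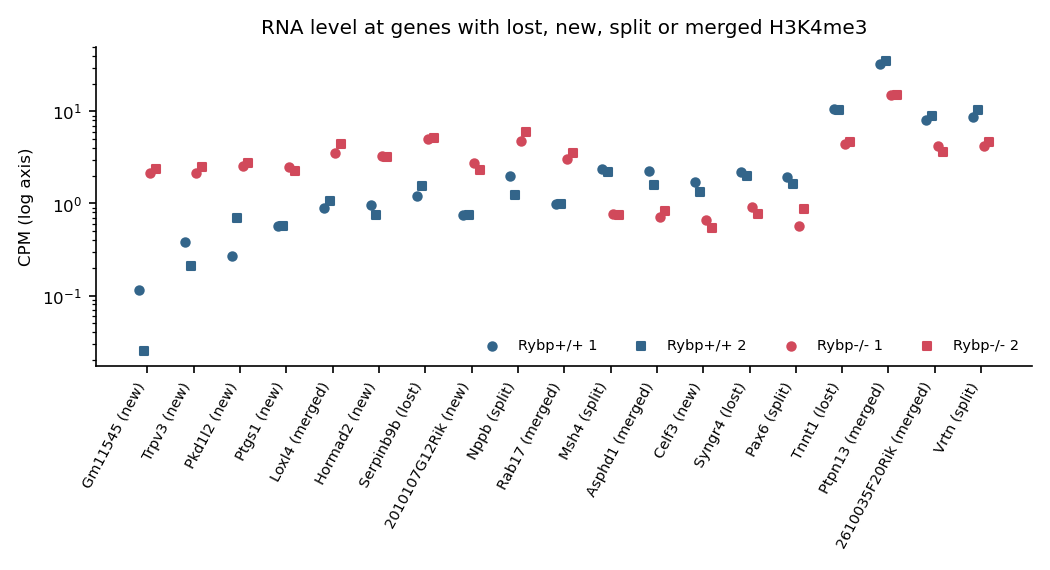
CPM (log axis) in each of the 2 Rybp+/+ (blue) and 2 Rybp-/- libraries (red) for genes with large changes at lost, new, split or merged H3K4me3, with the class in parentheses. Libraries of the genotypes do not overlap in any of these genes, which were chosen for their change.

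At split groups both directions were found. Pax6 had 1.92 and 1.64 CPM in Rybp+/+ and 0.565 and 0.870 in Rybp-/- ESCs (-1.31 ± 0.28, SE, adjusted p = 0.00028, edgeR). Ndufa4l2 had 62.9 and 65.2 CPM and then 43.0 and 39.5, a log2 fold change of -0.63, and Shmt2 and Stac3 in the same domain fell by 0.23 and 1.18. All genes of that domain thus fell. Msh4, a meiotic recombination gene, fell by 1.60, and Vrtn by 1.11. Esrrb had 1047 and 1080 CPM and then 1126 and 1131 and rose by 0.09 (adjusted p = 0.00923, edgeR), a call lost with either Rybp-/- library left out. Smad7, the inhibitory SMAD gene, whose domain of 17920 bp was split, rose by 0.26, and RP24-263P17.1 at the same domain fell by 0.90, a call lost by DESeq2, without the filter on low counts and without Rybp+/+ replicate 2 or Rybp-/- replicate 2. Nppb, the natriuretic peptide B gene, rose by 1.74, and Fgfr2 and Ctbp2 were not called, with log2 fold changes of 0.09 and -0.07. At merged groups, Hic1 had 0.776 and 1.01 CPM in Rybp+/+ and 2.52 and 2.36 in Rybp-/- ESCs (1.45 ± 0.24, SE, adjusted p = 7.0e-06, edgeR). Loxl4, a lysyl oxidase gene, rose by 2.04, Rab17 by 1.73 and Zbtb7a by 0.24, while Ptpn13, a tyrosine phosphatase gene, fell by 1.19, Asphd1 by 1.34, 2610035F20Rik by 1.14 and Ltbp4 by 0.21. The call of Zbtb7a was lost without Rybp+/+ replicate 1 or Rybp-/- replicate 1.

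Among 1-to-1 groups of 1 kb or more at a TSS, the strongest narrowing was at Zmynd8, a chromatin reader gene, with 2273 bp in Rybp+/+ and 1001 bp in Rybp-/- ESCs, and BC096441, with 3110 and 1370 bp. Zmynd8 had 221 and 221 CPM and then 173 and 178, and fell by 0.34 on the log2 scale. BC096441 had 8.24 and 9.60 CPM and then 5.48 and 5.29, and fell by 0.73. RNA of both genes thus fell along with the width of the interval named. Zmynd8 had 5 other groups with Rybp+/+ and 4 with Rybp-/- intervals at its TSSs, a similar and a merged one among them, while BC096441 had no other. At the purine synthesis genes Ppat and Paics, an interval on the Ppat side of their neighbouring TSSs, which contained neither, had 3723 and 1799 bp. The interval on the Paics side changed little, from -4934 to -630 bp of the Ppat TSS in Rybp+/+ and from -4878 to -632 in Rybp-/- ESCs. Paics fell by 0.19, and Ppat had a log2 fold change of -0.04. At Dkc1, the dyskerin gene, it had 5983 and 3206 bp and RNA fell by 0.12, a call lost without Rybp-/- replicate 1. Stac2 fell by 0.53, and Tle6 and the small nucleolar RNA gene SNORA36 were not called or not tested. The strongest widening was at Ankrd53, from 1020 to 2154 bp, whose log2 fold change of -0.01 did not pass the test. Pdlim3, a PDZ and LIM domain gene, had 1099 and 1947 bp and 1.58 and 1.91 CPM in Rybp+/+ against 3.51 and 3.56 in Rybp-/- ESCs, and rose by 1.02. Osbpl5, an oxysterol-binding protein gene, had 1477 and 2581 bp and 2.89 and 2.22 CPM against 5.11 and 5.57, and rose by 1.06. Pdxk, the pyridoxal kinase gene, rose by 0.32 and 2900010M23Rik by 0.26, Syt12 and Micall2 did not pass the test, and Ntf3 was not tested.

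Gene lists showed where these changes lie by function. All 18 H3K4 methyltransferase and partner genes had an interval, 13 similar, Rbbp5 narrower, Ash2l, Hcfc1 and Wdr82 split and Kmt2b merged, and 4 rose and 9 fell. Without Rybp-/- replicate 2 the calls of Kmt2a, Kmt2b, Kmt2d, Paxip1 and Rbbp5 were lost. Wdr5 kept an interval of 4104 and 4078 bp, had 245 and 253 CPM in Rybp+/+ and 225 and 226 in Rybp-/- ESCs, and fell by 0.14. Of 7 H3K4 demethylase genes, 6 had an interval, and 4 of these fell. Kdm5d, with no interval and under 1 CPM in all libraries, passed the test upwards, a call lost by DESeq2, without the filter on low counts and without Rybp+/+ replicate 2 or Rybp-/- replicate 2. All 26 PRC1 genes had an interval, 20 of them similar, with Cbx7 narrower at 6172 and 4899 bp and its RNA lower by a log2 fold change of -0.29, Pcgf2 and Kdm2b split, 2 merged, Bcor among them, and Phc1 with several intervals on both sides. Of these 26 genes 7 rose and 13 fell, Kdm2b by 0.60 on the log2 scale. The 12 PRC2 genes had 10 similar intervals and Eed and Aebp2 split, and 5 rose and 3 fell. H3K4me3 was thus present in both genotypes at nearly all genes of the complexes that place, remove or oppose it.

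Of 31 pluripotency genes 30 had an interval, 23 similar and none lost. Esrrb and Fbxo15 were split, Lin28a, Utf1 and Dppa2 merged, and Sall4 and Otx2 had several intervals on both sides. Of 23 in 1-to-1 groups 16 were shorter in Rybp-/- ESCs, with a median ratio of 0.968. This list had a median Rybp+/+ width of 4985.5 bp. Of all 1-to-1 groups of 4 kb or more 66.8% were shorter, with a median ratio of 0.975, so the count is near the share at like width. Their RNA rose in 15 and fell in 9 of 31 tested. Otx2, a gene of the primed state, had 40.3 and 37.3 CPM in Rybp+/+ and 10.8 and 11.6 in Rybp-/- ESCs and fell by 1.79 on the log2 scale. Dppa2 rose by 0.50, and Utf1 fell by 0.50.

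Developmental regulators and germ cell genes were more often longer than shorter in Rybp-/- ESCs. Of all 1-to-1 groups at a TSS with RING1B, 52.5% were shorter at 2 to 4 kb and 43.4% at 1 to 2 kb. All 59 developmental regulator genes in the table had an interval, 58 with RING1B, and 13 of 45 in 1-to-1 groups were shorter in Rybp-/- ESCs, with a median ratio of 1.03. Hoxb1, Pax7, Tbx5 and Neurog1 were wider, and none of the last 3 passed the test on RNA, while Hoxb1 was not tested. Tbx6, a mesoderm transcription factor gene, was the sole narrower one, with 2002 and 1381 bp, and fell by 1.30. Of 46 tested, 10 rose and 4 fell. Of 26 germ cell and meiosis genes 24 had an interval, 6 of 22 in 1-to-1 groups were shorter, and the median ratio was 1.07. Mov10l1, a piRNA pathway helicase gene, had 663 and 994 bp and 5.22 and 5.02 CPM in Rybp+/+ against 17.3 and 19.0 in Rybp-/- ESCs, and rose by 1.83. Slc25a31, a germ cell ADP/ATP carrier gene, had 755 and 1099 bp and rose by 1.58. Dazl, a germ cell RNA-binding protein gene, had 1885 and 2149 bp and rose by 1.56. Over this list 16 of 23 tested genes rose and 3 fell, with a median log2 fold change of 1.27. The interval of Hormad1 was new and that of Asz1 lost, and Majin, narrower at 528 and 325 bp, had a log2 fold change of -0.65 that did not pass the test. These counts are a description of genes chosen with the results known.

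Genes of the two-cell embryo gave RNA without called H3K4me3. Of 17 such genes in the table none had an interval within 1 kb of a TSS in either list, while 16 of 16 tested rose, with a median log2 fold change of 7.34. Zscan4c, the gene of a zinc finger protein of the two-cell-like state, had 0.102 and 0.0373 CPM in Rybp+/+ and 20.6 and 20.7 in Rybp-/- ESCs. Members this low in Rybp+/+ ESCs pass the filter on low counts only through the Rybp-/- libraries. Among such members that were tested, a rise was thus nearly fixed in advance. These genes have near-identical copies, so the count of each member is uncertain, and reads that map to several places may also be missing from the peak lists, which was not tested. Of 12 housekeeping genes, 10 were similar and 2 narrower, Hprt among them, and 8 of the 12 were shorter, near the 66.8% of all 1-to-1 groups of 4 kb or more.

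The cell type of the samples was checked by markers. All 10 ESC markers carried H3K4me3, 4 rose and 4 fell, and their summed level was 5966 to 6072 CPM in Rybp+/+ and 6138 to 6153 in Rybp-/- ESCs. Of 12 fibroblast feeder cell markers 6 carried H3K4me3, 11 rose, none fell and 2 stayed under 1 CPM in all libraries, with a sum of 93.5 to 95.8 CPM in Rybp+/+ and 191 to 202 in Rybp-/- ESCs. Of 8 primitive endoderm markers 4 rose (74.2 to 75.3 and 91.2 to 92.4 CPM), and of 9 trophectoderm markers 8 rose (161 to 163 and 196 to 204 CPM). The erythroid markers summed to 2.89 to 3.94 and 2.49 to 2.84 CPM, with Hbb-bh1 and Hba-x at 0. The part of these levels in the rise of weakly expressed genes at new and wider intervals was not tested.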

How the data were processed

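ChIP-seq reads were trimmed with Trim Galore, aligned to mm9 with Bowtie2 and freed of duplicates by the authors, who merged 2 replicates per genotype and called peaks with MACS2 against input. The deposited lists hold fold enrichment over background (a ratio) and the −log10 of the q-value. The methods state an FDR of 0.01, while 1.19% of the Rybp+/+ and 1.05% of the Rybp-/- H3K4me3 peaks lie under a −log10 q of 2, with a lowest value of 1.30. The read depth of the lists is unknown, so fold enrichment was not compared between the lists. The RING1B list holds 14408 broad peaks of 1 sample of R1 shEV cells, and the labels list an shEV input, while whether the peaks were called against it is not given in the sources used here.

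RNA-seq reads were aligned to mm9 with STAR, and the deposited values are raw counts per gene by htseq-count for 37620 genes. The strand setting is not given, so overlapping and antisense genes cannot be told apart. Rows that name no gene held 13.7% to 14.1% of the counts and were left out. Counts were fitted here with edgeR 4.0.16 (TMM, filterByExpr, quasi-likelihood test, Benjamini-Hochberg over 16955 genes, two-sided, threshold 0.05). With 2 against 2 libraries an exact permutation test cannot go below p = 0.333. Same-numbered libraries did not deviate together (correlation -0.02), and replicates differed beyond sampling noise (chi-square per degree of freedom 6.33 and 4.25).

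Overlaps, widths and TSS distances (GENCODE vM1, NCBIM37, 86880 TSSs) were computed with Python 3.11.15. Genes within 1 kb of an interval by any TSS were assigned to it. In counts of genes at lost intervals, genes with another Rybp+/+ interval there were left out, as were genes with another Rybp-/- interval in counts at new intervals, unless stated. Named genes may have other intervals. Named genes were the 10 at the strongest lost and new intervals, those at the widest split and merged groups, those of lowest and highest width ratio, the largest RNA changes with a mean of at least 1 CPM, and members of gene lists. A few genes that meet these rules are not reported here. Newer symbols were matched through annotated synonyms. Interval classes and the edgeR fit were tested on simulated data. The members, lists and tests were chosen with earlier results of these data known. Alternatives were −log10 q limits of 2 and 5, a 50% overlap, lists of equal length, joining within 500 bp, other TSS distances, DESeq2 1.42.0, other size factors, no count filter, a replicate block and leaving out each library.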

Additional observations from a re-analysis of the deposited data

How the results depend on the processing

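The count of lost H3K4me3 peaks stayed between 4253 and 6260 under all alternatives. With a −log10 q of 5 or more in both lists, new H3K4me3 peaks numbered 2624, split H3K4me3 peaks 647 and merged H3K4me3 peaks 388, the ratio of the median H3K4me3 peak width was 1.041, and genes called at split and merged H3K4me3 peaks numbered 400. Joining intervals within 500 bp left 559 split and 278 merged groups, and lists of equal length gave a width ratio of 0.9648. Requiring an interval to contain the TSS left 15 genes called at lost H3K4me3 peaks. Genes called in Rybp-/- RNA-seq numbered 7720, and 1330 with an absolute log2 fold change above 1, 6306 by DESeq2, 6692 without a count filter and 7724 with the replicate block. Leaving out 1 library gave 6081 to 7197 genes, of which 18 to 24 were called at lost, 35 to 45 at new, 516 to 611 at split and merged, and 681 to 789 at narrower and wider peaks. The share of genes that rose at wider groups was 23.2% to 41.0% over the alternatives run, above the 12.8% to 22.9% over all genes, and at new intervals it was 16.3% to 40.6%, lowest by DESeq2, which tested more weakly expressed genes. The causes were not tested.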
